A study of Arabidopsis thaliana with 3 samples.

Results

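WRKY, NAC and bZIP proteins are plant transcription factor families, and their genes were followed here in shoots of the flp-1/myb88 double mutant and of Col wild type Arabidopsis thaliana. Genes were taken by name: a probe set had to be annotated to exactly 1 gene whose symbol is WRKY, NAC or BZIP, in either case, followed by digits alone. This gave 21 genes of the 13286 with a named probe set, of which 6 are WRKY, 1 is NAC and 14 are bZIP genes. Each of the 21 was measured by a single probe set of the gene-specific _at type, so no choice between probe sets arose. The gene table lists 67 WRKY, 79 NAC and 30 bZIP genes under such symbols, 176 in all, and the other genes were not analysed here. NAC014 is therefore a single gene and says nothing of the NAC family as a whole.

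The mutant plants carried flp-1, an allele of FLP, together with a mutation in MYB88, and both genes encode MYB proteins that end cell division in the stomatal lineage, so that guard cells form as a pair. The controls were Col wild type plants, and the groups shared their age of 10 days, constant light and growth at 22 °C. There was 1 flp-1/myb88 array and there were 2 Col arrays, so the mutant had no replicate, and nothing in the labels says that the Col arrays came from separate plants. The p-values below therefore rest on the spread of the Col arrays, which may be technical, and 3 arrays allow little precision. No probe set was named as FLP or MYB88, which leaves the genotype of the mutant array unchecked.

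WRKY proteins bind the W-box of promoters, and many act downstream of immune receptors and MAP kinases or in leaf senescence. NAC proteins share a DNA-binding domain at their amino terminus, and several are held at a membrane until they are cut loose. bZIP proteins bind DNA as dimers through a basic region and a leucine zipper. Lettered bZIP groups differ in role, with group B acting in the response to unfolded proteins in the endoplasmic reticulum, group F in zinc supply and salt stress, and group S in energy and seed programs.

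Levels are log2 values of the deposited intensities, and a log2 difference is the mutant array minus the mean of the Col arrays. A gene was called where limma's Benjamini-Hochberg adjusted p over all 22746 probe sets was under 0.05. Most of the 21 genes were not called. BZIP28 was higher in flp-1/myb88 and bZIP48 was lower, while 19 genes did not pass. These 2 calls are 9.52% of the members, against 26.3% called over all probe sets tested (11.9% higher and 14.4% lower). At an unadjusted p under 0.05 there were 6 members, or 28.6%, against 39.7% of all probe sets. By size alone, 1 member lay at least 1 log2 unit (2-fold) above both Col arrays, where the share of all probe sets is 5.13%, and 1 lay as far below both, where that share is 9.67%. They were the same genes, BZIP28 and bZIP48.

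**Figure D1:**
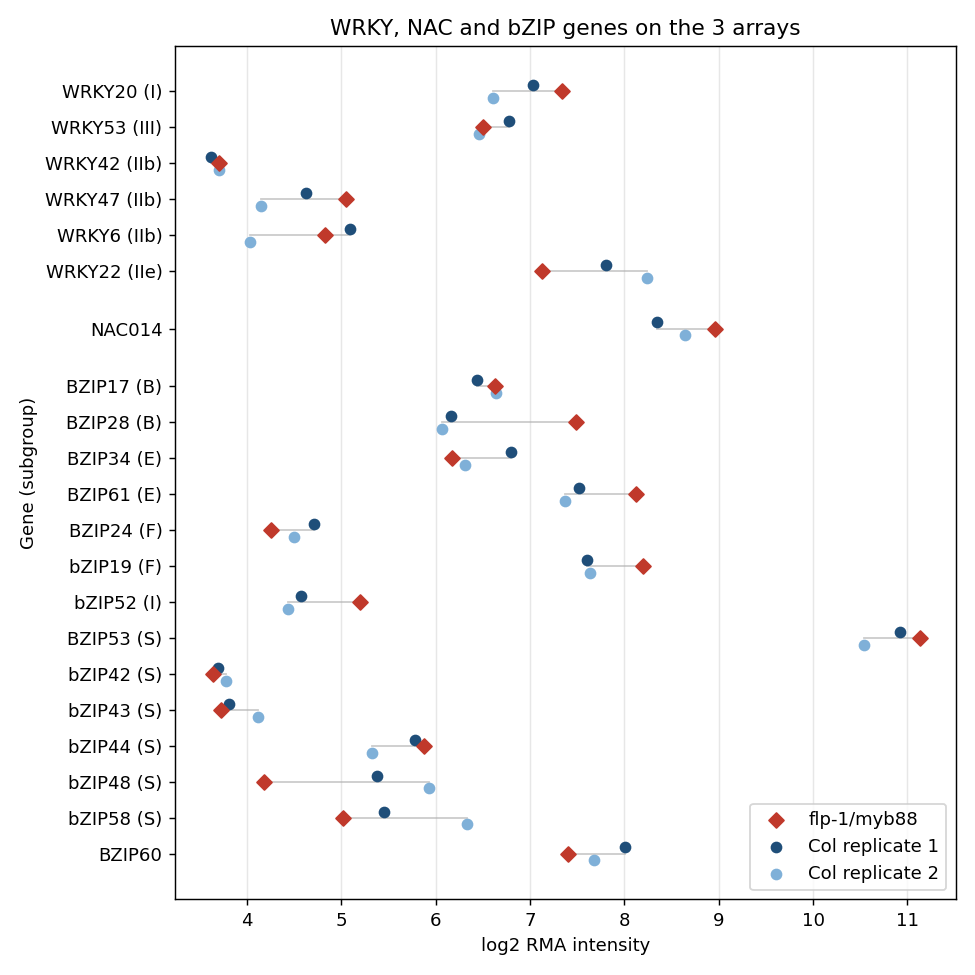
Log2 RMA intensity (horizontal axis) of the 21 genes, one per line with the subgroup in parentheses, on the flp-1/myb88 array (red diamonds), Col replicate 1 (dark blue) and Col replicate 2 (light blue), with the Col points set slightly above and below the line. BZIP28 lies 1.33 above the nearer Col array and bZIP48 lies 1.19 below it, and levels of different genes are not comparable because each probe set has its own response.

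Position relative to Col was close to that of all probe sets. The mutant value lay above both Col values at 10 members (49.2% of all probe sets do so), below both at 8 (37.4% of all) and between them at 3, so that 85.7% lay outside both Col arrays, against 86.7% of all probe sets. The median log2 difference was 0.09 over the 21 members and 0.10 over all probe sets. The median size of the difference, whatever its sign, was 0.44 for members and 0.53 for all probe sets. The Col arrays themselves differed at the members by a median of 0.32 in size, against 0.25 at all probe sets. That difference was largest at WRKY6, at 1.07, and smallest at bZIP19, at 0.04.

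**Figure D2:**
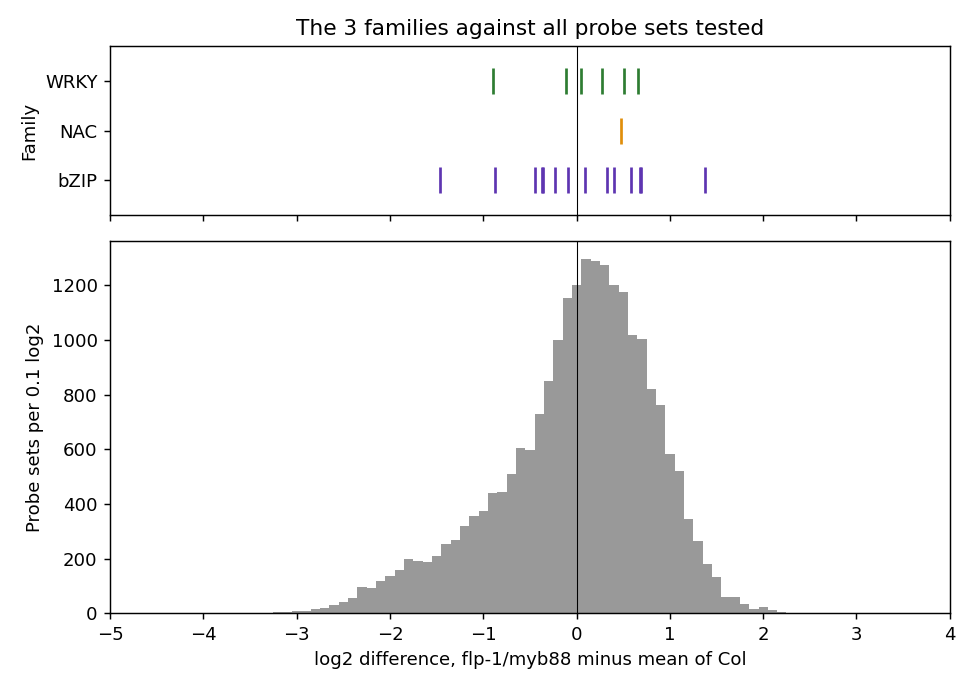
Upper panel, log2 difference of flp-1/myb88 minus the mean of Col for each of the 6 WRKY genes, NAC014 and the 14 bZIP genes, 1 mark per gene. Lower panel, the number of all 22746 probe sets per interval of 0.1 on the same horizontal axis. The members run from -1.47 to 1.38, within the range of all probe sets from -4.67 to 2.96.

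Control probe sets differed between the groups too, and these values stand beside every result here. The 6 control pairs cover actin, GAPDH and ubiquitin alone. In each pair, the log2 signal at the 3′ end minus that at the 5′ end was greatest in flp-1/myb88. Its excess over the nearer Col array ran from 0.09 to 1.70 log2. The spike-in poly-A controls, all of low level, had a median log2 of 3.47 in flp-1/myb88, against 3.10 and 3.04 in Col. Pseudogenes, which serve as a rough guide to signal without a working transcript, had a 75th percentile of 4.66 in flp-1/myb88, against 5.45 and 5.52 in Col. There were 12 members above that percentile on all 3 arrays and 4 members below it on all 3. The part of RNA quality and of low signal in the differences was not tested.

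None of the 6 WRKY genes was called by limma, where 26.3% of all probe sets were. An unadjusted p under 0.05 was found at 1 of them, WRKY22, and at 39.7% of all probe sets. WRKY22, which acts downstream of the flagellin receptor's MAP kinase cascade, came nearest to the threshold. Its level was 7.12 in flp-1/myb88, against 7.81 and 8.24 in Col. The mutant lay below both Col arrays, by 0.68 from the nearer one. The log2 difference was -0.90 ± 0.32 (SE; limma adjusted p = 0.0509), with a 95% interval from -1.58 to -0.22. The call depends on the fit: limma gave an adjusted p of 0.0226 with an intensity trend and 0.0200 after cyclic loess, and 0.0825 after median centring.

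WRKY6, WRKY42 and WRKY47 belong to group IIb. WRKY47 had a level of 5.05 in flp-1/myb88, against 4.63 and 4.15 in Col. It lay above both Col arrays, with a difference of 0.66 ± 0.32 log2 (SE; limma adjusted p = 0.142). Both Col values of WRKY47 lay under the pseudogene 75th percentile of their array, so the size of this difference is uncertain. WRKY6, a regulator of senescence and of phosphate transport, had a level of 4.83 in flp-1/myb88, against 5.10 and 4.03 in Col. The mutant value lay between the widely spaced Col values, so that its difference was -0.26 from Col replicate 1 and 0.80 from Col replicate 2. Both Col values of WRKY6 also lay under the pseudogene 75th percentile of their array, so the size of these differences is uncertain. WRKY42, which also acts in phosphate supply, had a level of 3.71 in flp-1/myb88, against 3.62 and 3.70 in Col, all below the pseudogene medians of 3.89 in flp-1/myb88 and of 4.06 and 3.99 in Col. These levels do not show signal over background on any array.

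The other WRKY genes are of groups I and III. WRKY20 had a level of 7.33 in flp-1/myb88, against 7.04 and 6.61 in Col. It lay above both, with a difference of 0.51 ± 0.31 log2 (SE; limma adjusted p = 0.248). WRKY53, known as an early regulator of leaf senescence, had a level of 6.50 in flp-1/myb88, against 6.77 and 6.46 in Col. The groups overlapped at this gene, and the log2 difference was -0.11, with a 95% interval from -0.78 to 0.55. Over the 6 WRKY genes the median log2 difference was 0.16, but it was 0.38 from Col replicate 2 and -0.09 from Col replicate 1.

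NAC014, counted among the NAC factors with a predicted membrane anchor, had a level of 8.97 in flp-1/myb88, against 8.34 and 8.64 in Col. The mutant lay above both Col arrays. The log2 difference was 0.47 ± 0.31 (SE; limma adjusted p = 0.270), with a 95% interval from -0.19 to 1.14. That interval takes in no change as well as a 2-fold rise.

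**Figure D3:**
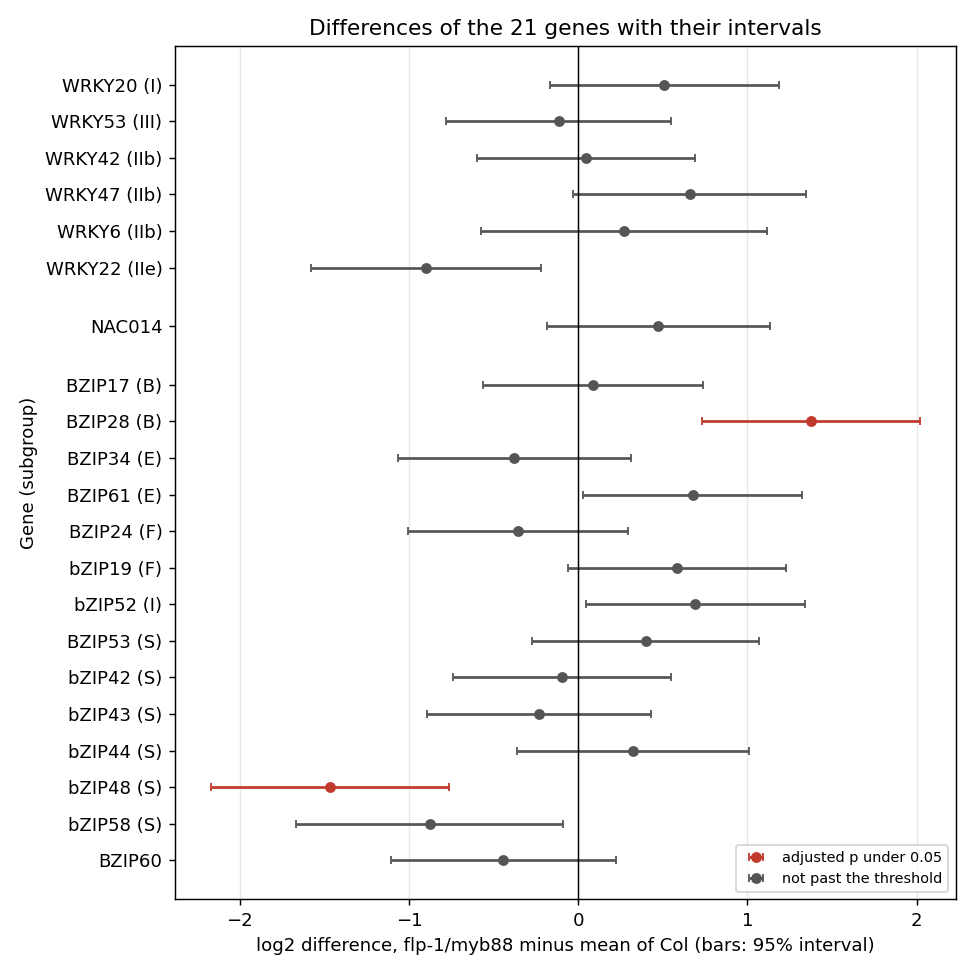
Log2 difference of flp-1/myb88 minus the mean of Col (horizontal axis) for the 21 genes, with 95% intervals from limma's moderated variance. BZIP28 at 1.38 and bZIP48 at -1.47, in red, are past the adjusted threshold, and the intervals of WRKY22, BZIP61, bZIP52 and bZIP58 leave out 0 without passing it.

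Among the 14 bZIP genes, 1 was called higher and 1 lower, where 11.9% and 14.4% of all probe sets were. Their median log2 difference was -0.00400, against 0.10 over all probe sets. The mutant lay above both Col arrays at 6 of them, below both at 7 and between them at 1. Over all probe sets, 49.2% lay above both and 37.4% below both. The differences ran in both directions within several groups.

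BZIP28 gave the clearest difference of all members. It encodes a factor of group B that sits in the membrane of the endoplasmic reticulum and, when unfolded proteins build up, moves to the Golgi, is cut there and enters the nucleus. Its level was 7.49 in flp-1/myb88, against 6.16 and 6.07 in Col. The Col arrays were 0.10 apart and the mutant stood 1.33 above the nearer one. The log2 difference was 1.38 ± 0.30 (SE; limma adjusted p = 0.00598), or 2.60-fold, with a 95% interval from 0.73 to 2.02. It was larger than 98.0% of all differences measured.

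BZIP17, the other measured factor of group B and also membrane-bound, had a level of 6.63 in flp-1/myb88, against 6.44 and 6.64 in Col. The mutant lay between the Col arrays, with a log2 difference of 0.09 and a 95% interval from -0.56 to 0.74. The difference of BZIP28 exceeded that of BZIP17 by 1.29, by 1.13 from Col replicate 1 and by 1.44 from Col replicate 2. Whether these differences are unequal was not tested. BZIP60, whose transcript is spliced by IRE1 under the same stress, had a level of 7.40 in flp-1/myb88, against 8.004 and 7.68 in Col. It lay below both, with a difference of -0.44 ± 0.31 log2 (SE; limma adjusted p = 0.309), and spliced and unspliced forms were not separated.

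Of 14 listed genes of the unfolded protein response, 3 had a named probe set. None was called by limma in either direction, where 26.3% of all probe sets were. An unadjusted p under 0.05 was found at 1 of them, and at 39.7% of all probe sets. At all 3 the mutant was above both Col arrays, as at 49.2% of all probe sets. Their median log2 difference was 0.62, against 0.10 over all probe sets. Among probe sets above the median level, the 2 list genes had a median of 0.60, against 0.22 over all such probe sets. The list median was 0.39 after quantile normalization, against 0.095 over all probe sets. After cyclic loess it was 0.42, against 0.0068, and after median centring 0.72, against 0.21. These settings were applied to this list after seeing the data. CRT1b, a calreticulin that folds glycoproteins in the endoplasmic reticulum, had a level of 9.81 in flp-1/myb88, against 9.30 and 9.08 in Col (limma adjusted p = 0.147). ATERDJ3B, a co-chaperone of the same compartment, had a level of 10.49 in flp-1/myb88, against 10.06 and 9.75 in Col (limma adjusted p = 0.173). The third, AT4G20310, had a level of 5.01 in flp-1/myb88, against 3.96 and 4.53 in Col (limma adjusted p = 0.0998). Its Col values lay under the pseudogene 75th percentiles of 5.45 and 5.52 in Col, so the size of this difference is uncertain. The mutant value was the highest of the 3 at each gene, but no difference passed the threshold.

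**Figure D4:**
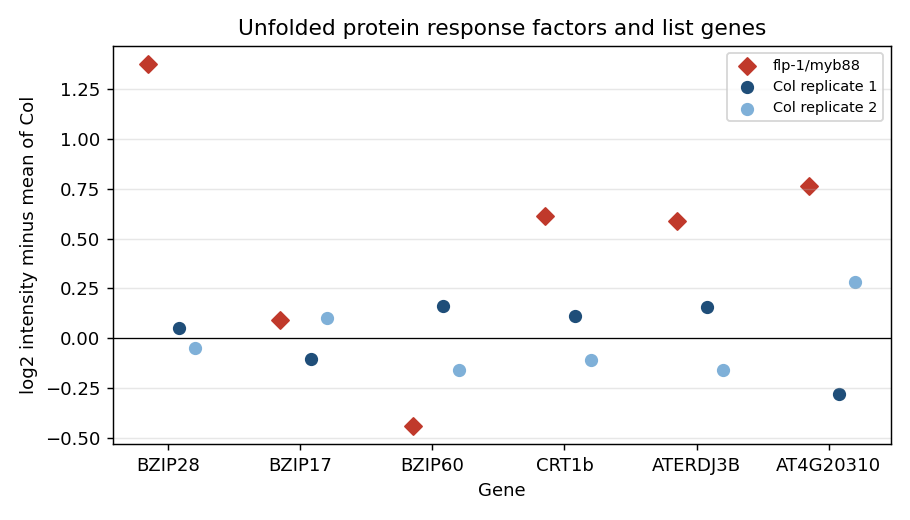
Log2 intensity minus the mean of the Col arrays (vertical axis) for BZIP28, BZIP17, BZIP60 and the 3 measured list genes of the unfolded protein response (horizontal axis), on flp-1/myb88 (red), Col replicate 1 (dark blue) and Col replicate 2 (light blue). BZIP28 stands at 1.38 on the mutant array, BZIP17 at 0.09 and BZIP60 at -0.44, and the 3 list genes lie between 0.59 and 0.76.

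Group S gave the single call in the other direction. bZIP48 had a level of 4.19 in flp-1/myb88, against 5.38 and 5.93 in Col. The mutant lay 1.19 below the nearer Col array. The log2 difference was -1.47 ± 0.33 (SE; limma adjusted p = 0.00673), with a 95% interval from -2.17 to -0.76. It was -1.19 from Col replicate 1 and -1.75 from Col replicate 2. Its mean level lay below the median of all probe sets. It was under the pseudogene 75th percentile in flp-1/myb88 and in Col replicate 1, and over it in Col replicate 2, so it was not shown to be above background in the mutant and the size of its difference is uncertain. Of 989 pseudogenes measured, 230 were called lower and 18 higher in the same fit, and the part of low signal in the bZIP48 difference was not tested.

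The remaining group S genes were not called. bZIP58 had a level of 5.02 in flp-1/myb88, against 5.45 and 6.34 in Col. It lay below both, but the Col arrays were 0.88 apart, and the log2 difference was -0.88 ± 0.36 (SE; limma adjusted p = 0.0911). BZIP53, a partner of group C factors in seed maturation and in the response to energy shortage, had a level of 11.13 in flp-1/myb88, against 10.92 and 10.54 in Col. Its log2 difference was 0.40, with a 95% interval from -0.27 to 1.07. bZIP44 had a level of 5.88 in flp-1/myb88, against 5.78 and 5.33 in Col, and lay only 0.10 above the nearer one. bZIP42, at 3.64 in flp-1/myb88 against 3.70 and 3.78 in Col, lay below the pseudogene median of each array and was not shown to be above background. bZIP43 had a level of 3.73 in flp-1/myb88, against 3.81 and 4.12 in Col, close to the same medians. Over the 6 genes of group S the mutant lay below both Col arrays at 4 and above both at 2. The shares of all probe sets are 37.4% below both and 49.2% above both. Among the 4 were bZIP42 and bZIP43, which lay only 0.05 and 0.08 below the nearer Col array.

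Groups E and F each held a pair of genes with differences of opposite sign, none past the threshold. In group E, whose members are known from pollen development, BZIP61 had a level of 8.12 in flp-1/myb88, against 7.52 and 7.37 in Col. Its log2 difference was 0.68 ± 0.30 (SE; limma adjusted p = 0.110). BZIP34 had a level of 6.17 in flp-1/myb88, against 6.79 and 6.31 in Col, a log2 difference of -0.38 (limma adjusted p = 0.411). The mutant lay above both Col arrays at BZIP61 and below both at BZIP34. The difference of BZIP61 exceeded that of BZIP34 by 1.05, by 1.22 from Col replicate 1 and by 0.89 from Col replicate 2.

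In group F, bZIP19, which with a close relative switches on zinc uptake genes under zinc shortage, had a level of 8.20 in flp-1/myb88, against 7.60 and 7.64 in Col. The Col arrays agree within 0.04 and the mutant lay 0.57 above the nearer one, but the log2 difference of 0.58 ± 0.30 (SE; limma adjusted p = 0.162) did not pass. BZIP24, a factor of the salt response, had a level of 4.25 in flp-1/myb88, against 4.71 and 4.50 in Col, below both and below the pseudogene 75th percentile on all 3 arrays. The difference of bZIP19 exceeded that of BZIP24 by 0.94. For neither pair was the inequality tested.

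Group I was represented by bZIP52, at 5.20 in flp-1/myb88 against 4.57 and 4.44 in Col. The mutant lay 0.63 above the nearer Col array. Both Col values lay under the pseudogene 75th percentile of their array, so the size of this difference is uncertain. The log2 difference was 0.69 ± 0.30 (SE; limma adjusted p = 0.102), with a 95% interval from 0.05 to 1.34.

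The gene table gives a WRKY or bZIP number as a synonym for another 9 genes with a named probe set, and these were looked at after the values of the members had been seen. Of the 9, 2 were called lower and 0 higher by limma, where 14.4% and 11.9% of all probe sets were, and 4 had an unadjusted p under 0.05, where 39.7% of all did. Both lower genes are of bZIP group I. AT2G13150 (bZIP31) had a level of 5.89 in flp-1/myb88, against 7.13 and 6.94 in Col, and its difference of -1.14 ± 0.30 on the log2 scale passed (SE; limma adjusted p = 0.0156). AT2G12900 (bZIP33) had a level of 3.84 in flp-1/myb88, against 5.09 and 4.64 in Col, with a difference of -1.03 ± 0.32 log2 (SE; limma adjusted p = 0.0308). All 3 values lay under the pseudogene 75th percentile of their array and the mutant value under the pseudogene median, so the size of this difference is uncertain. AT2G12900 no longer passed with median centring (limma adjusted p = 0.0564) or with quantile normalization (0.0723).

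The other 4 synonym genes of group I lay above both Col arrays and were not called. AT2G21230 (bZIP30) had the largest of their differences, at 7.75 in flp-1/myb88 against 7.24 and 6.59 in Col (limma adjusted p = 0.0804, and 0.0328 after the filter on low values). With bZIP52, group I thus held 7 measured genes, of which 5 lay above both Col arrays and 2 below both. Among all probe sets, 49.2% lay above both and 37.4% below both. ZAP1 (WRKY1) had a level of 9.20 in flp-1/myb88, against 8.89 and 8.71 in Col. FD, the partner of the flowering signal FT, had a level of 4.23 in flp-1/myb88, against 3.89 and 3.85 in Col. Its Col values lay under the pseudogene medians of Col and its mutant value under the pseudogene 75th percentile. EEL, a group A factor of seed maturation, had a level of 7.70 in flp-1/myb88, between the Col values of 7.90 and 7.66. None of these 3 passed the threshold. Members and synonym genes together held 30 genes, with 1 called higher and 3 lower, where 11.9% and 14.4% of all probe sets were.

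Genes were also taken from 12 lists, 2 of which had no named probe set. Most of the lists hold genes that act with these families. Another holds bZIP genes with other names, of which EEL and FD, given above, were measured. A further list holds handling and rapid stress genes. Of 162 listed genes 16 were measured, and 4 were called lower and 0 higher by limma, where 14.4% and 11.9% of all probe sets were. The 4 were HYH, GRX480, LTI30 and the handling gene STZ, which is described below. With median centring or quantile normalization 3 were called lower. Light signalling was represented by HYH, itself a bZIP factor and the homolog of HY5, the 1 measured gene of 11. Its level was 7.30 in flp-1/myb88, against 8.46 and 8.27 in Col, and its difference of -1.07 ± 0.30 log2 passed (SE; limma adjusted p = 0.0211). GRX480, a glutaredoxin that binds TGA factors of bZIP group D, was the 1 measured gene of 13 on its list. Its level was 6.71 in flp-1/myb88, against 7.51 and 7.79 in Col (limma adjusted p = 0.0381). It no longer passed with median centring (limma adjusted p = 0.0627) or with quantile normalization (0.0538).

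Of 20 abscisic acid genes, targets of bZIP group A, 4 were measured and 1 was called lower. Their median log2 difference was 0.37, against 0.10 over all probe sets. LTI30, a dehydrin induced by cold and drought, had a level of 4.54 in flp-1/myb88, against 6.81 and 7.27 in Col, with -2.50 ± 0.32 as its log2 difference (SE; limma adjusted p = 0.000498). Its mutant value lay under the pseudogene 75th percentile of that array, so the size of the difference is uncertain. COR15B had a level of 8.15 in flp-1/myb88, against 8.07 and 6.37 in Col, and COR15A 5.88 in flp-1/myb88, against 6.39 and 5.24 in Col. Neither of these cold-induced genes was called with all probe sets tested, and at both the Col arrays lay further apart than the difference between flp-1/myb88 and Col. COR47, another dehydrin, had a level of 10.88 in flp-1/myb88, against 10.32 and 10.12 in Col, and was not called. The lists around WRKY and NAC factors held 1 measured gene each, or none, and gave no call. SAG101, of the salicylic acid branch, had a level of 6.91 in flp-1/myb88, against 7.15 and 7.10 in Col. BIK1, a kinase below immune receptors, had a level of 5.90 in flp-1/myb88, against 6.36 and 6.03 in Col. SAG29 of the senescence list had a level of 6.18 in flp-1/myb88, against 5.94 and 6.18 in Col, and LAS of the organ boundary list 3.87 in flp-1/myb88, against 4.46 and 4.23 in Col.

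Genes that answer handling and the makeup of the tissue were read beside these values. STZ, a zinc finger repressor induced within minutes of cold or handling and the 1 measured gene of 14 on its list, had a level of 5.86 in flp-1/myb88, against 8.41 and 7.97 in Col, and was called lower (limma adjusted p = 0.000543). Of the tissue marker lists, 3 of 4 measured guard cell genes (8 listed) were called lower, where 14.4% of all probe sets were. Log2 differences ran from -1.22 to -0.17 over the 4. Of these calls, CHX20 did not pass with median centring (limma adjusted p = 0.0671) and AT4G14480 did not with quantile normalization (0.0614). The 1 measured epidermis and trichome gene of 6, TRY, was also called lower, at 7.40 in flp-1/myb88 against 9.19 and 9.29 in Col. None of 11 measured markers was called higher, where 11.9% of all probe sets were. For leaf photosynthesis, 3 of 8 listed genes were measured and none was called. The mutant value exceeded both Col values at each, as it did at 49.2% of all probe sets. PYK10, known mainly from roots, had a level of 11.40 in flp-1/myb88, against 11.66 and 11.61 in Col. In bulk shoots, fewer cells of a type and less RNA per cell cannot be told apart, and the part of handling or of cell makeup in the differences of the members was not tested.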

How the data were processed

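Total RNA from shoots (25 ng per sample) was amplified by the Ovation method and biotin-labelled, as the labels' protocols state. The deposited intensity values come from RMA, per the submitters' processing notes, a method that corrects background, normalizes between arrays and summarises each probe set. Its version and settings, the scan times and the genome build are not given in the sources. Values were taken to be linear from their range, and log2 was taken with no pseudocount. Of 22810 probe sets, 64 controls were left out, and 0 sample columns were left out. Among the 22746 tested, 13513 had 1 annotated gene, 503 several and 8730 none here, and 13436 matched the TAIR10.1 gene table by gene ID, which was used for names only.

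The contrast was fitted with limma 3.58.1 in R 4.3.3 (lmFit and eBayes, no trend, not robust, two-sided, Benjamini-Hochberg over all probe sets). The spread came from the 2 Col arrays (1 residual and 12.1 prior degrees of freedom), and the single mutant array was taken to have the same variance. The fit was also run on simulated arrays that all shared the same variance at each probe set, so that run could not check this assumption. Every called member was named, and the rest as far as they complete a subgroup. Members, subgroups and lists were chosen with earlier results of these data known. Alternatives were an intensity trend, a robust fit, a filter at the median level, cyclic loess, median centring, quantile normalization, a 1.5-fold limit, another probe set or symbol source, and each Col array left out.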

Additional observations from a re-analysis of the deposited data

Results flagged for a closer look

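Control probe sets, which entered no comparison, stood apart on the mutant array. The spike-in poly-A controls had a median of 3.47 log2 in flp-1/myb88, against 3.10 and 3.04 in Col, with the mutant value highest at 27 of 27. In 6 of 6 control pairs the 3′ minus 5′ difference was highest in flp-1/myb88, and for the second actin pair it was 5.15 in flp-1/myb88, against 3.45 and 3.17 in Col. These pairs cover actin, GAPDH and ubiquitin alone. All controls were read on the same single mutant array, so neither count is one of independent observations.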

How the results depend on the processing

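BZIP28 was called higher in each of the 6 alternative fits, with log2 differences from 1.27 to 1.48 and limma adjusted p-values up to 0.0226. bZIP48 was called lower in the 5 fits that tested it, with adjusted p-values up to 0.0329, and it lay below the filter on low values. Members called lower numbered 1 as reported, 2 with an intensity trend or cyclic loess, and 3 with the synonym genes counted. Called lower were 1 WRKY gene with the trend, the filter or cyclic loess, where 0 were reported, and 0 bZIP genes after the filter. With a 1.5-fold limit, 3 members (all bZIP) lay above both Col arrays and 2 below, 1 of them a WRKY gene. Members at least 2-fold below Col numbered between 1 and 3 with 1 Col array left out (0 to 1 for WRKY, 1 to 2 for bZIP). The 3 were against Col replicate 2, without Col replicate 1. After the filter, which kept 11 of the 21 members, their median difference was 0.40, against 0.22 over all probe sets kept. The median difference of the 21 members was -0.0136 after cyclic loess, against 0.0068 over all probe sets. It was 0.20 after median centring, which itself moved all probe sets by 0.11, against 0.21 over all probe sets. Leaving out 1 Col array gave 0.09 (replicate 2 left out) and 0.04 (replicate 1 left out). The WRKY median was -0.11 after the filter, the bZIP median 0.40 after the filter, -0.0900 after cyclic loess and 0.10 after median centring, and the NAC014 difference 0.22 after cyclic loess. For these medians, centring added the same 0.11 to every difference, and the filter changed no difference but left fewer genes. The cause of the other shifts was not tested. Between the fits, the sign turned at 3 members and 1 synonym gene near 0: WRKY42 (-0.0266) and BZIP17 (-0.0136) after cyclic loess, bZIP42 (0.00943) and bZIP12 (0.0312) after median centring. The sign also depended on the Col array at WRKY6 (0.80 and -0.26 without Col replicates 1 and 2), WRKY53 (0.04 and -0.27) and BZIP17 (-0.0136 and 0.19). Among list genes, 1 was called higher after the filter, COR15B. No paired analysis was possible because the mutant array carries no replicate number. The absence of a mutant replicate limits every value, and signal over background cannot be read from the deposited table.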

Other observations

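The genes next to the members were looked at after the values had been seen, taking the 5 nearest genes with a named probe set on each side in gene order. Over all probe sets 14.4% were called lower and 11.9% higher, and over the 989 pseudogenes 23.3% and 1.82%. Around BZIP28, 1 of 10 neighbours was called higher and 1 lower, and their median log2 difference was 0.28. Around bZIP48, 3 of 10 neighbours were called lower and 0 higher, 1 was a pseudogene, and the median was -0.50. Around bZIP42, 9 of 10 neighbours were pseudogenes and 6 were called lower, with a median of -0.98, while bZIP42 itself differed by -0.10. AT2G13150 (bZIP31) and AT2G12900 (bZIP33), both called lower, also lay among pseudogenes, 9 of 10 neighbours each, but their neighbour medians were 0.16 and 0.16. WRKY42 had 8 pseudogenes among its 10 neighbours, none called by limma, and a neighbour median of 0.21. Over the 21 members the neighbour median ran from -0.98 to 0.53, and 14 members had no pseudogene among their neighbours.

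Col replicate 2 lay below Col replicate 1 at 7 of the 10 members with the mutant above both Col arrays, where the share of all such probe sets is 63.2%. It lay above Col replicate 1 at 5 of the 8 members with the mutant below both, where that share is 71.6%.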
